A study of Mus musculus with 24 samples.

Results

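Expression of the genes that build the mechanotransduction apparatus of the hair cell was followed in cultured mouse organs of Corti (OCs), the sensory epithelium of the cochlea. The set comprised 10 genes, Tmc1, Tmc2, Lhfpl5, Tmie, Cib2, Pcdh15, Cdh23, Myo7a, Ush1c and Ush1g, chosen by name as components of the transduction channel, the tip link and its upper anchor, and all 10 were present among the 24454 genes of the count table. OCs from C57BL/6N pups of both sexes at postnatal day 5 were kept in culture medium and then exposed for 6 or 24 h to no drug (CTRL), to 50 µM gentamicin (GM), an aminoglycoside antibiotic toxic to hair cells, to 10 µM pioglitazone (PIO), a drug that activates PPAR-γ, a nuclear receptor, or to both drugs (PIO+GM). All 8 groups shared the strain, the age and the culture before exposure. Each group held 3 libraries, 24 in all, and each library was made from total RNA of 6 pooled OCs, so that hair cells contributed only part of the RNA. The labels do not say whether the 3 libraries of a group came from separate litters, and p-values therefore measure the spread between these libraries.

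Hair cells convert the deflection of their stereocilia into current. A tip link, formed by cadherin 23 (Cdh23) at its upper end and protocadherin 15 (Pcdh15) at its lower end, pulls on a channel whose pore is formed by Tmc1 and Tmc2 and whose other components include Lhfpl5, Tmie and the calcium- and integrin-binding protein Cib2. The upper end of the link is held by the motor protein myosin VIIa (Myo7a) with the scaffold proteins harmonin (Ush1c) and Sans (Ush1g). In cochlear hair cells of the mouse, Tmc2 is expressed transiently after birth while Tmc1 persists, and aminoglycosides enter hair cells largely through this channel.

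For 8 of the 10 genes, the RefSeq table used here held the 250 bases before the transcription start, in build GRCm38.p6. The upstream sequences of Tmc1, Lhfpl5 and Tmie are printed because these channel components differed most in their values, Tmie with time and Tmc1 and Lhfpl5 between drug groups at 24 h, a choice made with these values known. Capitals mark the E-box CAGCTG, which reads the same on both strands, and the nuclear receptor half-site AGGTCA, searched on both strands; the matches do not overlap. The windows lie at chr19:20954203-20954452 (minus strand), chr17:28575469-28575718 (plus strand) and chr9:110880074-110880323 (minus strand) and read, 5′ to 3′:
Tmc1: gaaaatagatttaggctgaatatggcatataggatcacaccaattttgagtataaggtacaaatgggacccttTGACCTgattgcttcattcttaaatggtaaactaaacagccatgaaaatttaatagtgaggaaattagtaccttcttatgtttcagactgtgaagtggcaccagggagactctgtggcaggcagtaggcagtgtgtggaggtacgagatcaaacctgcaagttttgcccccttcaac
Lhfpl5: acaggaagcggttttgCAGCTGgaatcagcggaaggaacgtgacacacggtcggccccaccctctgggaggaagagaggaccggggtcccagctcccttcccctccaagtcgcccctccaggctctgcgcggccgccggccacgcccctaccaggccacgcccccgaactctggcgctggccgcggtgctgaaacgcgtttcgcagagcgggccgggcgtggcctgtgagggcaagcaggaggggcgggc
Tmie: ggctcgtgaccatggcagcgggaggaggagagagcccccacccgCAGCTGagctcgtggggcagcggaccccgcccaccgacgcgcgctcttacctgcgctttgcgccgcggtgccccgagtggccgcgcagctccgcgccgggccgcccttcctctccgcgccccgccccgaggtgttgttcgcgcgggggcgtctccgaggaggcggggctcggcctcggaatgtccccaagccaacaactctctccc
The 3 sequences differed in composition, with a GC content of 41.2% for Tmc1, 70.8% for Lhfpl5 and 74.8% for Tmie. An E-box began at position -234 from the start of Lhfpl5 and at -206 from that of Tmie, and was found in 13.0% of 32851 upstream sequences of the same length. The half-site began at position -177 of Tmc1, on the opposite strand, and was found in 14.0% of them. Neither motif was found in the windows of Pcdh15, Cdh23, Cib2, Myo7a and Ush1c. These matches describe letters only. The starts used for Tmc1 and Lhfpl5 lie inside the spans of the genes given next.

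The genes lie on 7 chromosomes. In GRCm38, Tmc1 spans chr19:20783456-21037126, Tmc2 chr2:130195194-130265189, Lhfpl5 chr17:28575369-28583593 and Ush1g chr11:115315192-115333736. Chromosome 9 holds Tmie (chr9:110865687-110880073) and Cib2 (chr9:54544794-54560190), chromosome 10 both tip link genes, Pcdh15 (chr10:73096277-74649831) and Cdh23 (chr10:60302748-60696513), and chromosome 7 Myo7a (chr7:98051054-98119522) and Ush1c (chr7:46195350-46238490). Exons of Tmie share 244 bases with exons of Als2cl on the opposite strand, those of Cib2 227 bases with Sh2d7 and those of Ush1c 120 bases with Gm9860. Whether reads were counted by strand is not given in the sources used here, so reads from these stretches cannot be assigned to one gene. Sh2d7 had at most 7 counts in a library and Als2cl between 155 and 1040.

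All 10 genes were detected in every library and passed the filter on low counts. The order of their levels, compared as RPKM, which divides a gene's reads by its counted exon length and the library total, scaled by its TMM factor, and given as mean ± SD over the 24 libraries, was led by Cib2 (28.8 ± 8.32) and the scaffold gene Ush1c (27.3 ± 10.1). Myo7a followed at 8.93 ± 2.53, Lhfpl5 at 6.41 ± 2.77, Cdh23 at 4.02 ± 1.13, Tmc1 at 3.87 ± 1.84, Pcdh15 at 2.76 ± 0.796, Tmie at 2.02 ± 0.724, Tmc2 at 1.01 ± 0.639 and Ush1g at 0.351 ± 0.15. Within a library, Ush1c exceeded Myo7a in 24 of 24 libraries, Tmie exceeded Tmc2 in 22 and Tmc2 exceeded Ush1g in 22, with mean log2 ratios of 1.58, 1.15 and 1.42, each larger than its SD over libraries. The other neighbours in this order did not differ beyond the SD of their ratio. Cib2 was above Ush1c in only 14 of 24 libraries, and Cdh23 above Tmc1 in 12.

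Counts were lowest for Ush1g, with 4 to 29 per library, and for Tmc2, with 11 to 118, whereas Ush1c had 413 to 1943 and Myo7a 292 to 1437. The plot of log2 CPM (CPM, counts scaled to the library total times its TMM factor) shows each gene in each library.

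**Figure D1:**
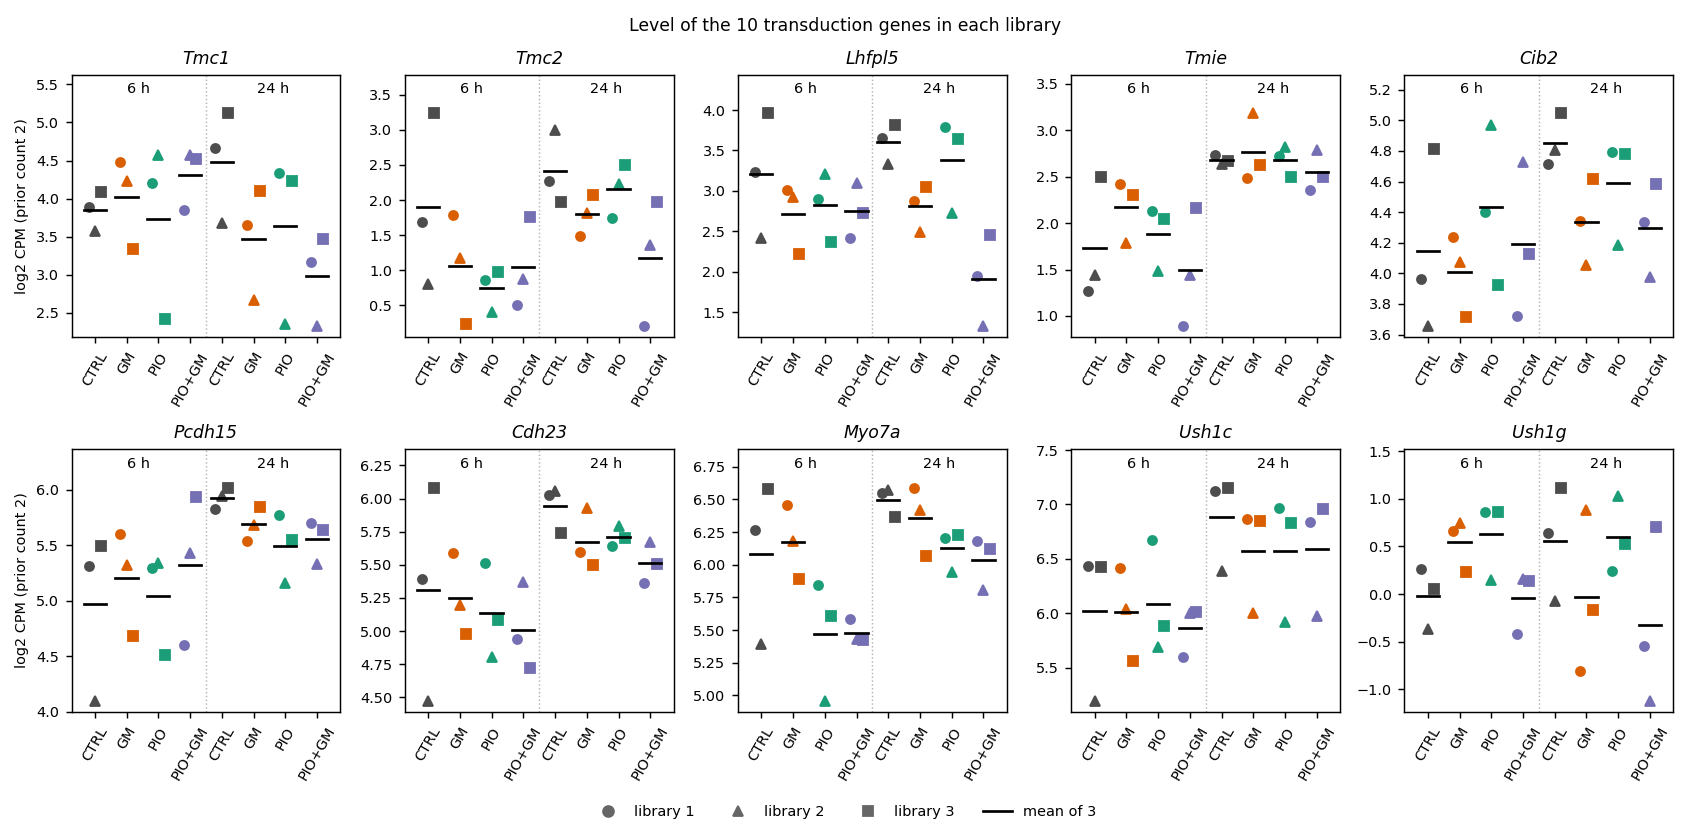
Level of each of the 10 genes (y axis, log2 CPM with a prior count of 2) in the 4 treatments at 6 h and 24 h (x axis); each symbol is a library, its shape the replicate number in the labels, and bars are means of 3 libraries. Tmie lies between 1.69 and 5.5 CPM at 6 h and between 4.96 and 8.91 CPM at 24 h, whereas Tmc1 spreads over 4.84 to 34.6 CPM at 24 h, with the library numbered 2 lowest in each treatment.

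The libraries held 7211357 to 15548856 reads counted on genes, with a median of 12538495, and 3 counts corresponded to 0.193 to 0.405 CPM, a floor that covers counting error only. The 18 hair cell markers examined all passed the filter, and their summed level was 564.9 to 1031 CPM at 6 h and 617.5 to 1206 CPM at 24 h, against 2040 to 6564 and 3482 to 5221 CPM for 14 supporting cell markers, 474.7 to 3126 and 442.9 to 1134 CPM for 10 Schwann cell markers, 123.5 to 514.8 and 213.3 to 395.2 CPM for 10 neuron markers, 48.04 to 123.6 and 61.53 to 207.4 CPM for 10 macrophage markers, and 2984 to 5542 and 3372 to 7174 CPM for 10 mesenchyme and vessel markers. The 4 libraries numbered 2 at 24 h differed from the others of their group in several lists. Their hair cell marker sum was the lowest of the group in 4 of 4 treatments (617.5 to 856.7 CPM against 802.7 to 1206 CPM in the other 8), their macrophage sum the highest in 4 of 4 (138.9 to 207.4 against 61.53 to 112 CPM, without overlap) and their mesenchyme and vessel sum the highest in 3 of 4 (3965 to 7174 against 3372 to 6105 CPM). Ocm, the calcium buffer oncomodulin of outer hair cells, had 0.227 to 7.13 CPM in them and 7.02 to 68 CPM in the other 8 libraries of that time, and Slc26a5, their motor protein prestin, 0.675 to 5.72 CPM against 7.77 to 60.4 CPM. The ranges overlapped for Ocm and did not for Slc26a5. These 2 markers were singled out after their values were seen. In the same libraries, Tmc1, Lhfpl5 and Ush1c were the lowest of their group in 4 of 4 treatments, and Cdh23 was the highest in 4 of 4. Comparisons that hold a 24 h group were therefore also fitted without these 4 libraries, a step chosen after seeing the data.

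The calls of edgeR's test among these genes lay between the time points. Averaged over the 4 treatments, 6 of the 10 genes rose from 6 to 24 h and none of the other 4 passed the threshold, by edgeR's quasi-likelihood test with Benjamini-Hochberg adjustment over 16317 genes and a threshold of 0.05. Across all tested genes, 62.6% were called in this comparison and 31.9% were called higher and 30.7% lower. A call in either direction was thus about as frequent among the 10 as among all genes. The 6 were Tmie, Tmc2, both tip link cadherins, Myo7a and Ush1c. The median log2 fold change was 0.45 over the 10 genes and 0.02 over all tested genes. In these bulk libraries, more or fewer hair cells and more or less RNA per hair cell cannot be told apart.

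Among the channel components, Tmie, a transmembrane protein required for the channel to work, rose most. At 6 h, the CPM of Tmie was 2.25, 2.56 and 5.50 in CTRL, 5.21, 3.28 and 4.76 in GM, 4.21, 2.65 and 3.98 in PIO and 1.69, 2.57 and 4.32 in PIO+GM. At 24 h, it was 6.50, 6.07 and 6.19 in CTRL, 5.45, 8.91 and 6.0 in GM, 6.42, 6.89 and 5.50 in PIO and 4.96, 6.74 and 5.47 in PIO+GM. The 24 h libraries lay above the 6 h libraries of the same treatment in all 4 treatments, as was the case for 24.1% of all genes in CTRL, 22.7% in GM, 20.5% in PIO and 22.4% in PIO+GM. The log2 fold change averaged over treatments was 0.82 (SE 0.17, 95% interval 0.48 to 1.17, adjusted p = 0.00024), and it was the only gene of the 10 that passed in a single treatment, at 1.03 (SE 0.34, adjusted p = 0.0240) in PIO+GM, a call that was lost without library 1 or 2 at 6 h or library 2 at 24 h. Als2cl, whose exons overlap those of Tmie, also rose, by 0.43 (SE 0.17, adjusted p = 0.0315), and its part in the Tmie counts was not tested. Without the 4 libraries numbered 2 at 24 h, the average was 0.71 (adjusted p = 0.00458), and the PIO+GM value was 0.88 (adjusted p = 0.101).

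Tmc2, the pore-forming paralog of early postnatal hair cells, passed the threshold by a small margin. Tmc2 had a CPM of 3.05, 1.59 and 9.26 in CTRL, 3.28, 2.10 and 1.02 in GM, 1.67, 1.16 and 1.81 in PIO and 1.27, 1.68 and 3.24 in PIO+GM at 6 h. The corresponding values at 24 h were 4.65, 7.79 and 3.75 in CTRL, 2.64, 3.38 and 4.07 in GM, 3.21, 4.55 and 5.50 in PIO and 0.992, 2.42 and 3.76 in PIO+GM. In PIO, every 24 h library was above every 6 h library, as for 20.5% of all genes, whereas the groups overlapped in CTRL, GM and PIO+GM. The average log2 fold change was 0.66 (SE 0.28, 95% interval 0.07 to 1.24, adjusted p = 0.0473), and without the libraries numbered 2 at 24 h it was 0.54 (adjusted p = 0.174), on the other side of the threshold. Leaving out 1 library at a time, it stayed called without 7 of the 24 and was not called without the other 17 (adjusted p = 0.00406 to 0.108).

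Tmc1, the pore-forming subunit of mature hair cells, did not pass. In the 6 h libraries, the CPM of Tmc1 was 14.7, 11.8 and 16.8 in CTRL, 22.2, 18.7 and 9.99 in GM, 18.3, 23.6 and 5.21 in PIO and 14.2, 23.7 and 22.8 in PIO+GM. In the 24 h libraries, it reached 25.1, 12.7 and 34.6 in CTRL, 12.4, 6.21 and 17.0 in GM, 20.0, 4.94 and 18.6 in PIO and 8.86, 4.84 and 10.9 in PIO+GM. In PIO+GM all 24 h libraries were below all 6 h libraries, as were 20.7% of all genes, while in CTRL the mean was higher at 24 h and the libraries overlapped. The log2 difference between 24 and 6 h was 0.73 (SE 0.53, adjusted p = 0.322) in CTRL, -1.30 (SE 0.54, adjusted p = 0.0693) in PIO+GM and -0.30 (SE 0.27, 95% interval -0.85 to 0.26, adjusted p = 0.342) on average. Without the libraries numbered 2 at 24 h the average was 0.02 (adjusted p = 0.956).

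For Lhfpl5, which couples the tip link to the channel, the average was 0.03 (SE 0.19, 95% interval -0.36 to 0.43, adjusted p = 0.886), with values between 4.49 and 15.4 CPM (median 7.34) at 6 h and between 2.35 and 13.9 CPM (median 7.66) at 24 h. Cib2, which binds the Tmc proteins, had 12.4 to 31.2 CPM (median 17) at 6 h and 15.6 to 32.9 CPM (median 24.1) at 24 h, and its difference was 0.29 (SE 0.15, 95% interval -0.03 to 0.61, adjusted p = 0.107). Within treatments, the log2 difference of Lhfpl5 was 0.28 (SE 0.36, adjusted p = 0.612) in CTRL, 0.07 (SE 0.37, adjusted p = 0.904) in GM, 0.61 (SE 0.37, adjusted p = 0.224) in PIO and -0.82 (SE 0.39, 95% interval -1.63 to -0.02, adjusted p = 0.102) in PIO+GM, the last with -1.14 to -0.57 when each library was left out in turn. For Lhfpl5 and Cib2, the intervals of the average include 0 and reach up to log2 differences of 0.43 and 0.61.

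Both tip link genes rose. For Pcdh15, CPM at 6 h was 39.5, 16.9 and 45.0 in CTRL, 48.3, 39.8 and 25.6 in GM, 39.0, 40.2 and 22.6 in PIO and 24.0, 43.0 and 60.9 in PIO+GM. After 24 h, CPM was 56.5, 61.2 and 64.5 in CTRL, 46.4, 51.3 and 57.5 in GM, 54.5, 35.6 and 46.6 in PIO and 51.8, 40.2 and 49.7 in PIO+GM. Pcdh15 was higher at 24 h in every CTRL library, as were 24.1% of all genes, and in the other treatments the groups overlapped. Its average log2 fold change was 0.47 (SE 0.16, 95% interval 0.13 to 0.81, adjusted p = 0.0179). At 6 h, the CPM of Cdh23 was 41.8, 22.0 and 67.5 in CTRL, 47.9, 36.5 and 31.3 in GM, 45.6, 27.8 and 33.7 in PIO and 30.6, 41.2 and 26.2 in PIO+GM. At 24 h, it was 65.1, 66.4 and 53.4 in CTRL, 48.2, 60.7 and 45.0 in GM, 49.8, 55.3 and 51.8 in PIO and 40.9, 50.8 and 45.4 in PIO+GM. For Cdh23 the groups were separate in PIO only, where 20.5% of all genes were higher without overlap. The average of Cdh23 was 0.48 (SE 0.14, 95% interval 0.19 to 0.77, adjusted p = 0.00522). Without the libraries numbered 2 at 24 h, Pcdh15 gave 0.52 (adjusted p = 0.0332) and Cdh23 0.39 (adjusted p = 0.0532).

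Of the upper anchor, the motor and harmonin rose and Sans did not pass. Myo7a had a CPM of 76.7, 41.9 and 95.6 in CTRL, 87.9, 72.4 and 59.1 in GM, 57.2, 30.9 and 48.6 in PIO and 47.7, 42.9 and 42.6 in PIO+GM at 6 h. The corresponding values at 24 h were 93.3, 94.8 and 82.1 in CTRL, 96.0, 85.4 and 66.9 in GM, 73.6, 61.4 and 74.9 in PIO and 72.3, 55.8 and 69.3 in PIO+GM. Myo7a was separate between the times in PIO and PIO+GM, where 20.5% and 22.4% of all genes were higher without overlap. Its average log2 fold change was 0.42 (SE 0.12, 95% interval 0.17 to 0.67, adjusted p = 0.00467). In the 6 h libraries, the CPM of Ush1c was 86.2, 36.4 and 86.0 in CTRL, 85.5, 65.5 and 47.1 in GM, 102, 51.3 and 58.8 in PIO and 48.2, 63.8 and 64.2 in PIO+GM. In the 24 h libraries, it reached 139, 83.4 and 142 in CTRL, 117, 63.9 and 115 in GM, 125, 60.3 and 113 in PIO and 114, 62.9 and 124 in PIO+GM. The libraries of Ush1c overlapped between the times in each treatment, and the average was 0.66 (SE 0.18, 95% interval 0.27 to 1.05, adjusted p = 0.00422). Ush1g, with 0.593 to 1.67 CPM at 6 h and 0.303 to 2.01 CPM at 24 h, gave 0.02 (SE 0.26, 95% interval -0.52 to 0.56, adjusted p = 0.953). On counts summed over the libraries with the same number and time, neither passed (adjusted p = 0.0718 for Myo7a and 0.0678 for Ush1c). Without the libraries numbered 2 at 24 h, Myo7a gave 0.45 (adjusted p = 0.0136) and Ush1c 0.89 (adjusted p = 0.000258).

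**Figure D2:**
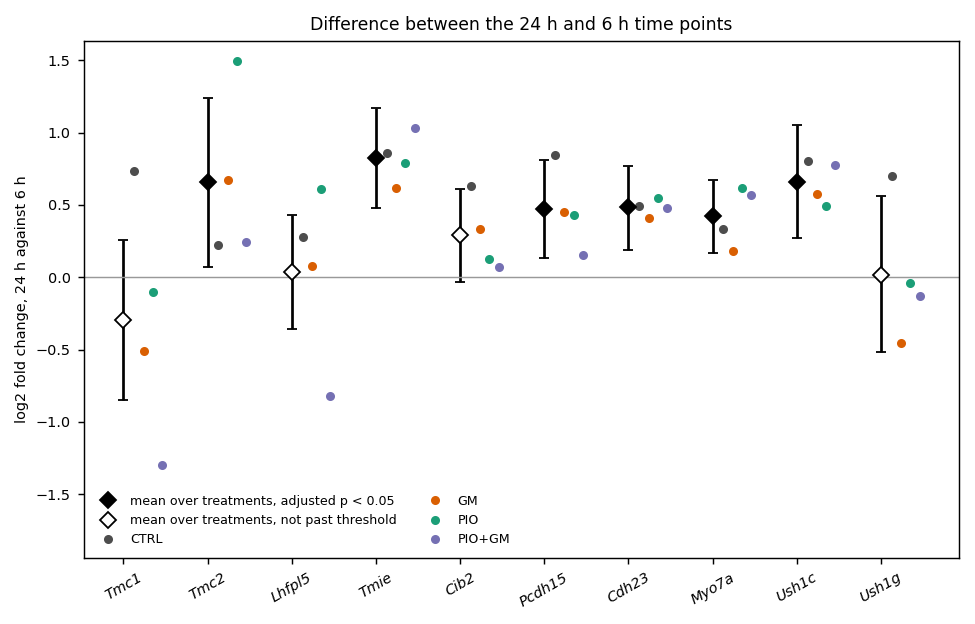
Log2 fold change from 6 to 24 h (y axis) of the 10 genes (x axis). Diamonds are the average over the 4 treatments with its unadjusted 95% interval, filled where the adjusted p is under 0.05, and circles the difference within each treatment; Tmie (0.82), Ush1c (0.66) and Tmc2 (0.66) are highest, and Tmc1 (-0.30) is the only average below 0.

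Within single treatments, 0 of 10 genes passed in CTRL (28% of all tested genes called), in GM (24.2%) and in PIO (29%), and 1 in PIO+GM (34.6%), by edgeR's test. At an unadjusted p under 0.05 there were 3, 0, 3 and 5 of 10, against 39%, 37.2%, 41.3% and 45.5% of all genes, and DESeq2 called 1, 0, 2 and 2, with 30.7%, 28.2%, 32.9% and 37.9% of all genes called by it. In CTRL 10 of 10 genes were higher at 24 h, with a median log2 difference of 0.66, and in PIO+GM 7 of 10 with a median of 0.20. Without the 4 libraries numbered 2 at 24 h, 4 of the 10 passed on average over treatments, against 56.1% of all genes. Counts that share a replicate number were also summed over the 4 treatments, which left 3 sums at each time, and 3 of the 10 genes passed then, namely Tmie (0.80, adjusted p = 0.0253), Pcdh15 (0.51, adjusted p = 0.00557) and Cdh23 (0.46, adjusted p = 0.0271), with 41.4% of all genes called.

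Cell type markers were counted in the same comparison, which called 62.6% of all genes. Of 18 hair cell markers, 3 rose, Myo6 (0.54), Pou4f3 (0.57) and Atoh1 (0.73), and 5 fell, Pvalb, Slc17a8, Bdnf, Chrna9 and Slc26a5, with a list median of 0.04. Of 14 supporting cell markers 6 rose and 0 fell, of 10 macrophage markers 7 rose and 0 fell, of 10 mesenchyme and vessel markers 3 rose and 2 fell, of 10 Schwann cell markers 0 rose and 6 fell, and of 10 neuron markers 1 rose and 7 fell. Without the libraries numbered 2 at 24 h, where 56.1% of all genes were called, 3 hair cell markers rose and 4 fell, 6 supporting cell markers rose, 4 macrophage markers rose, 2 mesenchyme and vessel markers rose and 1 fell, 6 Schwann cell markers fell, and 1 neuron marker rose and 9 fell. Their part in the rise of the transduction genes was not tested.

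The balance between the pore-forming paralogs was followed as the log2 ratio of Tmc2 to Tmc1 RPKM in each library. It was below 0, with more Tmc1 than Tmc2, in 23 of 24 libraries, and averaged -2.01 ± 1.1 (SD, n = 24). At 6 h it was -1.93, -2.56 and -0.52 in CTRL, -2.42, -2.81 and -2.95 in GM, -3.12, -4.00 and -1.19 in PIO and -3.15, -3.48 and -2.48 in PIO+GM. At 24 h it was -2.09, -0.36 and -2.87 in CTRL, -1.89, -0.54 and -1.72 in GM, -2.30, 0.22 and -1.42 in PIO and -2.82, -0.66 and -1.20 in PIO+GM. The libraries numbered 2 had the highest ratio of each treatment at 24 h and the lowest of CTRL, PIO and PIO+GM at 6 h. The SD of a group was 0.28 to 1.44, and the group means ran from -3.03 to -1.16. The mean was -2.55 ± 0.97 (SD, n = 12) at 6 h and -1.47 ± 0.99 (SD, n = 12) at 24 h, and the times overlapped. Without the libraries numbered 2, the 24 h mean was -2.04 ± 0.61 (SD, n = 8).

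**Figure D3:**
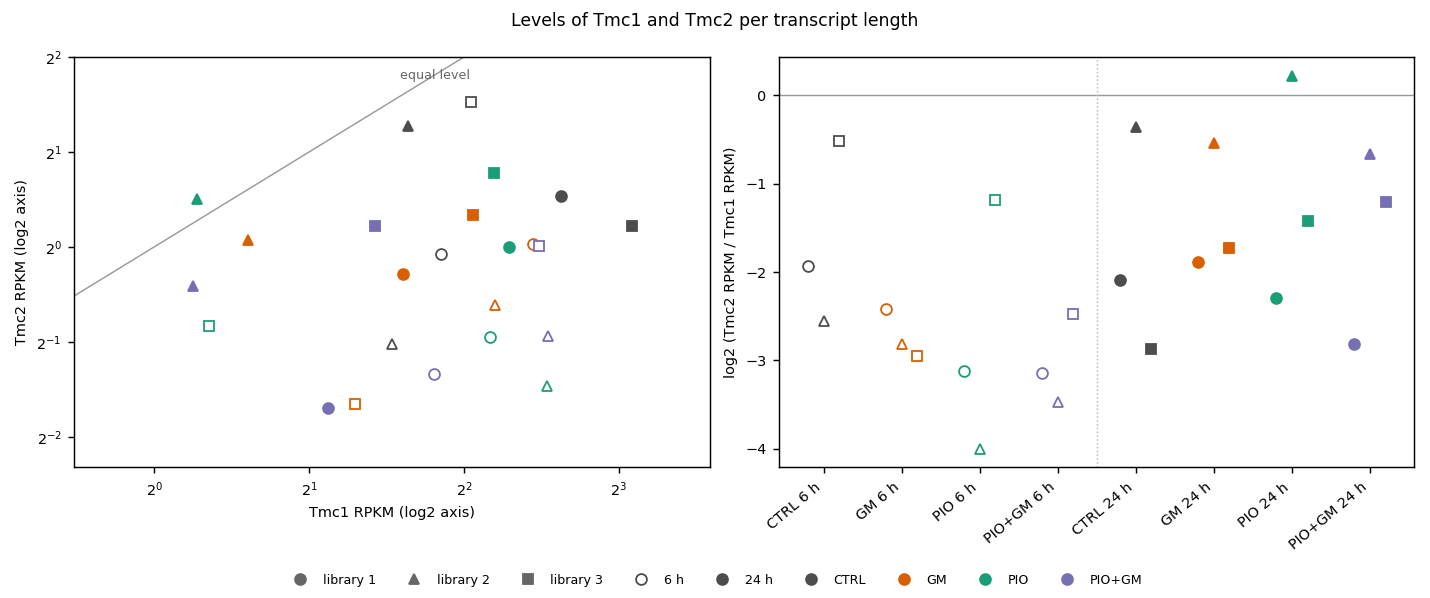
Left, Tmc2 against Tmc1 level in each library (RPKM, both axes log2) with the line of equal level; right, log2 ratio of Tmc2 to Tmc1 RPKM by group. Open symbols are 6 h and filled symbols 24 h, colours treatments and shapes replicate numbers; 1 library, number 2 of PIO at 24 h (0.22), lies above the line.

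No drug comparison called any of the 10 genes in edgeR's fit of the 8 group means, and the nearest was Lhfpl5 in PIO+GM at 24 h. For Lhfpl5, CPM at 6 h was 9.24, 5.20 and 15.4 in CTRL, 7.90, 7.41 and 4.49 in GM, 7.28, 9.10 and 4.99 in PIO and 5.16, 8.42 and 6.48 in PIO+GM. After 24 h, CPM was 12.4, 9.90 and 13.9 in CTRL, 7.19, 5.47 and 8.13 in GM, 13.7, 6.44 and 12.3 in PIO and 3.70, 2.35 and 5.31 in PIO+GM. The 3 PIO+GM libraries at 24 h were below every other library of that time, and the 3 GM libraries were below the 3 CTRL libraries. The log2 difference of PIO+GM was -1.67 (SE 0.38, 95% interval -2.47 to -0.87, adjusted p = 0.0548) from CTRL, -1.51 (SE 0.38, adjusted p = 0.252) from PIO and -0.87 (SE 0.38, adjusted p = 0.601) from GM, and GM differed from CTRL by -0.80 (SE 0.37, adjusted p = 1.0). DESeq2's Wald test gave adjusted p = 0.00371 against CTRL, where it called 1.61% of all genes, and 0.0422 against PIO, where it called 0.215%, and without the libraries numbered 2 at 24 h edgeR gave -1.55 (adjusted p = 0.226) and -1.53 (adjusted p = 0.690). Leaving out each library of the pair in turn, the difference from CTRL was -1.99 to -1.42 (adjusted p = 0.0669 to 0.264). These comparisons share the PIO+GM or the CTRL libraries.

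In PIO+GM against CTRL at 24 h, 10 of 10 genes were lower and 0 passed, with 0.478% of all genes called, and the median log2 difference was -0.50 against 0.00 over all tested genes. The libraries of both groups did not overlap for 6 genes, Lhfpl5, Tmc1, Cib2, Pcdh15, Cdh23 and Myo7a, while 10.2% of all tested genes were lower without overlap. Tmc1, at 8.86, 4.84 and 10.9 CPM in PIO+GM and 25.1, 12.7 and 34.6 CPM in CTRL, differed by -1.55 (SE 0.54, 95% interval -2.68 to -0.42, adjusted p = 0.283). Tmc2 gave -1.19 (SE 0.55, adjusted p = 0.526), Ush1g -0.87 (SE 0.52, adjusted p = 0.701) and Cib2 -0.54 (SE 0.31, adjusted p = 0.668). Of the tip link and the other anchor genes, the differences were -0.45 (SE 0.24) for Myo7a, -0.43 (SE 0.28) for Cdh23, -0.36 (SE 0.33) for Pcdh15 and -0.27 (SE 0.37) for Ush1c, and Tmie gave -0.13 (SE 0.32).

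Hair cell markers outside the set are given beside these values. In PIO+GM against CTRL at 24 h, 18 of 18 were lower and 0 passed in edgeR's test, with a median of -0.75, 8 at an unadjusted p under 0.05 (9.05% of all genes) and 2 called by DESeq2 (1.61% of all genes). Their summed level was 617.5 to 920.9 CPM against 856.7 to 1206 CPM. Ocm had 7.94, 0.227 and 8.17 CPM in PIO+GM and 42.8, 7.13 and 68.0 CPM in CTRL, and Slc26a5 14.1, 1.59 and 13.4 against 43.6, 5.61 and 60.4 CPM. Low values were not particular to PIO+GM. With GM alone at 24 h, Ocm had 7.02, 1.82 and 22.4 CPM and Slc26a5 7.77, 0.675 and 17.2 CPM. With PIO alone at 24 h, Ocm had 37, 2.54 and 26.1 CPM and Slc26a5 46.7, 5.72 and 35.6 CPM. Of the supporting cell markers 13 of 14 were lower, with a median of -0.28 and a summed level of 3502 to 4378 against 3701 to 5221 CPM. Neuron markers were lower for 10 of 10 (median -0.43, 213.3 to 255.7 against 223.4 to 395.2 CPM in sum) and mesenchyme and vessel markers for 8 of 10 (median -0.30, 3372 to 4076 against 5026 to 5873 CPM), whereas 4 of 10 Schwann cell and 4 of 10 macrophage markers were lower. In none of these lists did a gene pass in edgeR's test, and DESeq2 called 1 mesenchyme and vessel marker. The part of these markers in the lower values of the transduction genes was not tested.

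**Figure D4:**
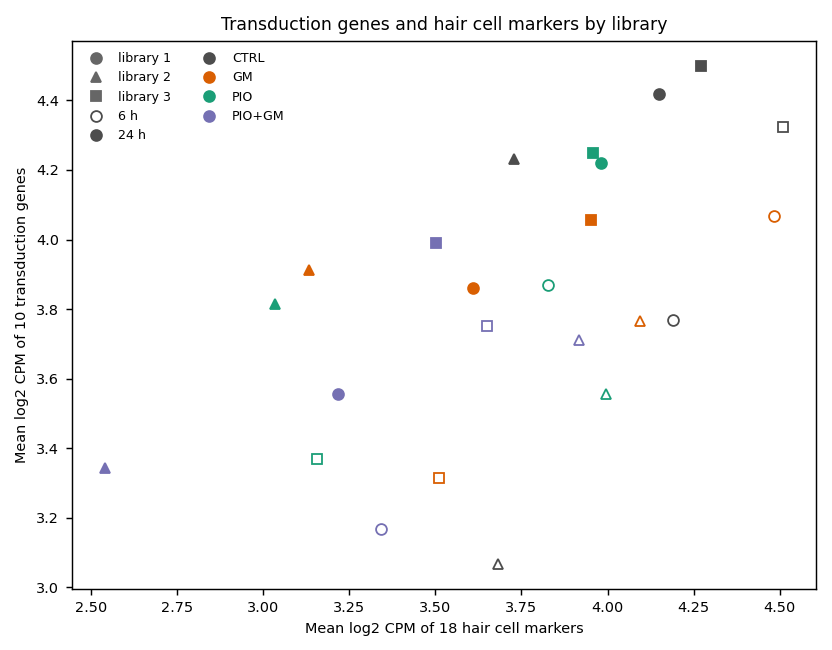
Mean log2 CPM of the 10 transduction genes (y axis) against the mean log2 CPM of 18 hair cell markers outside the set (x axis), 1 symbol per library, with open symbols at 6 h and filled symbols at 24 h. CTRL at 24 h lies at 3.73 to 4.27 on the marker axis and 4.23 to 4.5 on the gene axis, and PIO+GM at 24 h at 2.54 to 3.5 and 3.34 to 3.99.

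With GM alone at 24 h, 9 of 10 genes were lower than in CTRL and 0 passed (0.0123% of all genes called), with a median of -0.40. Lhfpl5 and Cib2 were lower without overlap, as were 3.06% of all genes. Tmc1 had 12.4, 6.21 and 17.0 CPM, a difference of -1.02 (SE 0.53, 95% interval -2.13 to 0.09, adjusted p = 1.0), and Cib2 gave -0.51 (SE 0.31, adjusted p = 1.0). With PIO alone, 8 of 10 were lower and 0 passed (0.153%), with a median of -0.27 and Pcdh15 and Myo7a lower without overlap (10.7% of all genes). Lhfpl5 differed by -0.16 (SE 0.36, 95% interval -0.92 to 0.60, adjusted p = 0.938) between PIO and CTRL. Beside these values, hair cell markers were lower than in CTRL for 11 of 18 with GM (median -0.31, 679.6 to 952.8 CPM in sum) and for 16 of 18 with PIO (median -0.37, 623.9 to 1048 CPM). At an unadjusted p under 0.05 there were 5 of 18 with GM, against 1.67% of all genes, and 1 of 18 with PIO, against 9.93%. Supporting cell markers were lower for 12 of 14 with either drug (medians -0.34 and -0.20), neuron markers for 9 and 8 of 10 (-0.13 and -0.22), Schwann cell markers for 1 and 8 of 10 (0.22 and -0.37), and mesenchyme and vessel markers for 1 and 7 of 10 (0.16 and -0.26), and 0 markers of these lists passed by edgeR or DESeq2. Their part in the values of the 10 genes was not tested. When PIO was added to GM, 9 of 10 were lower than in GM and 0 passed (0.11%), with Lhfpl5 alone separate (8.57% of all genes), while 14 of 18 hair cell markers (median -0.41), 9 of 10 neuron markers (-0.36) and 8 of 10 mesenchyme and vessel markers (-0.50) were lower. In this comparison DESeq2 called 1 mesenchyme and vessel marker lower. At an unadjusted p under 0.05 there were 4 of that list and 4 of 18 hair cell markers, against 7.47% of all genes. Summed levels overlapped between GM and PIO+GM for each marker list except mesenchyme and vessel (4890 to 7174 against 3372 to 4076 CPM). Against PIO, PIO+GM was lower for 8 of 10 with 0 past the threshold (0.0735%), and again Lhfpl5 was separate (4.71% of all genes), while 13 of 18 hair cell (median -0.37, 1 called by DESeq2), 10 of 14 supporting cell (-0.17) and 8 of 10 neuron markers (-0.28) were lower and 9 of 10 Schwann cell markers higher (0.33). At an unadjusted p under 0.05 there were 1, 0, 1 and 1 genes in these 4 comparisons and 3 in PIO+GM against CTRL, against 1.67%, 9.93%, 7.47%, 2.59% and 9.05% of all genes. DESeq2 called 0 in the first 3 of them, where it called 0.0919%, 0.993% and 0.625% of all genes, and Lhfpl5 in the other two.

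At 6 h, 0 of 10 genes passed in GM against CTRL (0% of all genes called), PIO against CTRL (0.337%), PIO+GM against GM (1.32%), PIO+GM against CTRL (2.64%) or PIO+GM against PIO (0%), and DESeq2 called 0 in each, with 0%, 2.09%, 7.45%, 7.27% and 0.00613% of all genes called by it. At an unadjusted p under 0.05 there were 0, 2, 1, 2 and 0 genes, against 1.49%, 15.2%, 25%, 23.6% and 3.06% of all genes. Myo7a had the lowest adjusted p in PIO+GM against GM and against CTRL and Tmc2 in PIO against CTRL. For Myo7a, the libraries of PIO+GM and GM did not overlap, with a log2 difference of -0.72 (SE 0.24, 95% interval -1.22 to -0.21, adjusted p = 0.0972) between them, and the difference was -0.68 (SE 0.24, adjusted p = 0.107) between PIO+GM and CTRL and -0.65 (SE 0.24, adjusted p = 0.217) between PIO and CTRL, whose libraries overlapped in both. Without library 1 of PIO+GM, Myo7a gave -0.77 from GM (adjusted p = 0.0497), with 25% of all genes called, and without library 2 of CTRL it gave -0.95 between PIO+GM and CTRL (adjusted p = 0.0269, 2.44% of all genes). Ush1g was also lower in PIO+GM than in GM without overlap, at 0.593, 0.962 and 0.945 against 1.43, 1.51 and 1.02 CPM, as were 11.4% of all genes. Tmc2 was different from CTRL by -1.13 (SE 0.56, adjusted p = 1.0) in GM, -1.57 (SE 0.57, adjusted p = 0.208) in PIO and -1.21 (SE 0.57, adjusted p = 0.205) in PIO+GM, comparisons that share the CTRL libraries, which held 3.05, 1.59 and 9.26 CPM. Without the CTRL library at 9.26 CPM, the 3 differences were -0.14, -0.58 and -0.22. Of the 18 hair cell markers, 13 were lower in PIO+GM than in GM at 6 h with a median of -0.54 and 0 calls by edgeR (4 by DESeq2 and 4 at an unadjusted p under 0.05, against 7.45% and 25% of all genes). In the same comparison, 11 of 14 supporting cell (median -0.20), 10 of 10 Schwann cell (-0.44), 8 of 10 neuron (-0.19), 9 of 10 macrophage (-0.41) and 5 of 10 mesenchyme and vessel markers (-0.10) were lower. In PIO against CTRL, lower values were found for 13 of 18 hair cell (-0.37), 9 of 14 supporting cell (-0.19), 10 of 10 Schwann cell (-0.72), 10 of 10 neuron (-0.63), 7 of 10 macrophage (-0.09) and 6 of 10 mesenchyme and vessel markers (-0.49). In PIO+GM against CTRL, the counts were 13 of 18 hair cell (-0.68), 12 of 14 supporting cell (-0.36), 6 of 10 Schwann cell (-0.03), 6 of 10 neuron (-0.04), 7 of 10 macrophage (-0.17) and 7 of 10 mesenchyme and vessel markers (-0.27). In edgeR's fit of the 8 group means, Lhx3 was the only hair cell marker called in these 3 comparisons. It was lower in PIO+GM than in CTRL (-2.38, SE 0.53, adjusted p = 0.0283), and DESeq2 called 3 markers there and 0 in PIO against CTRL. Between groups of these 3 comparisons, the summed levels of each list overlapped, and the part of the markers in the Myo7a values was not tested. For Lhfpl5 and Tmc1, GM differed from CTRL by -0.60 (SE 0.37, adjusted p = 1.0) and 0.23 (SE 0.53, adjusted p = 1.0).

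**Figure D5:**
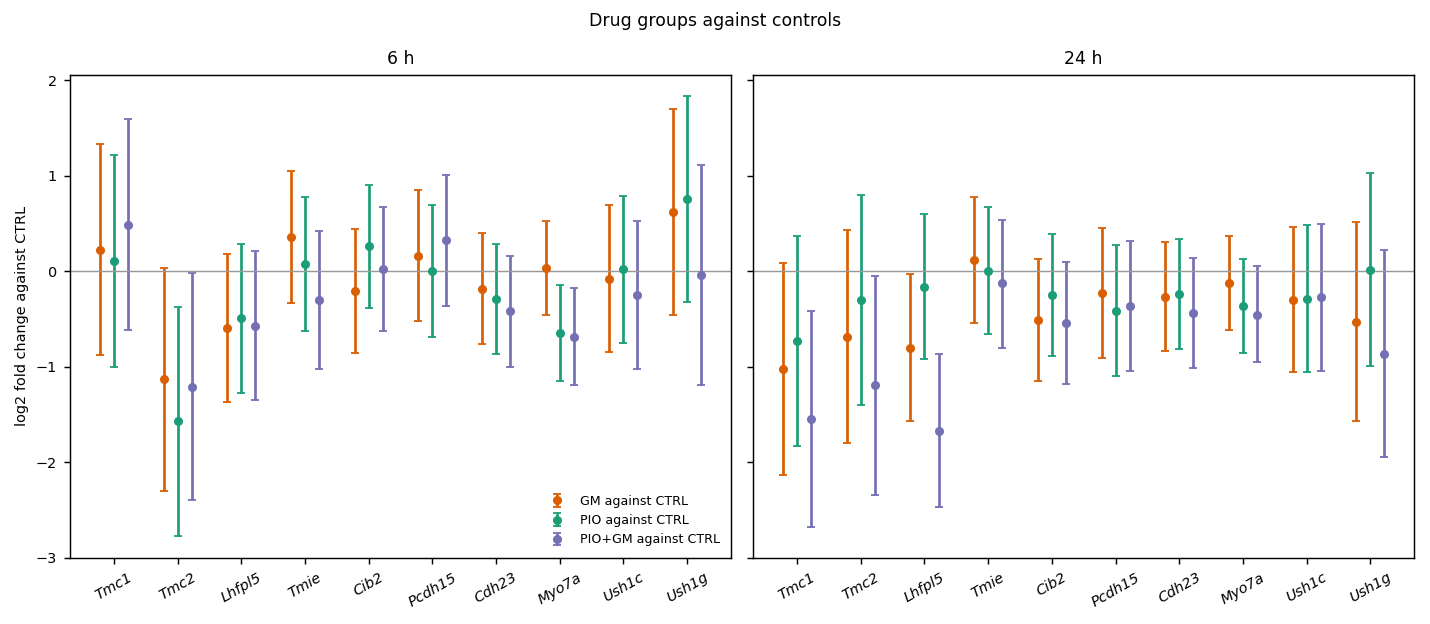
Log2 fold change against CTRL (y axis) of the 10 genes (x axis) with GM, PIO or both, at 6 h (left) and 24 h (right); points are estimates from 3 against 3 libraries and bars unadjusted 95% intervals. Lhfpl5 (-1.67) and Tmc1 (-1.55) with PIO+GM at 24 h lie farthest from 0 on the right, and no point passed the adjusted threshold in edgeR's fit of the 8 group means (DESeq2 called Lhfpl5 with PIO+GM at 24 h).

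Whether a drug difference changed with time, or whether PIO acted differently with and without GM, was tested as an interaction. In each of the 5 interactions 0 of 10 genes passed, and 0% of all genes were called in each. None of the 10 had an unadjusted p under 0.05, as did 0.766% to 4.38% of all genes, and DESeq2 called 0 of 10. The difference between GM and CTRL was lower at 24 h than at 6 h by a log2 difference of -1.25 (SE 0.75, 95% interval -2.81 to 0.32, adjusted p = 1.0) for Tmc1, and by -0.20 (SE 0.52, 95% interval -1.29 to 0.89) for Lhfpl5. The effect of PIO with GM minus that without GM at 24 h was -0.71 (SE 0.53, 95% interval -1.81 to 0.38, adjusted p = 1.0) for Lhfpl5. These intervals are wide and leave room for differences of more than 1 on the log2 scale.

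Other genes of the hair bundle were examined in the same fits. Of 17 genes that serve transduction or bundle links outside the set, 16 passed the filter, and Cib3, a relative of Cib2, had at most 5 counts in a library. None of them passed in a drug comparison in edgeR's fit of the 8 group means. In these comparisons 0 to 8 had an unadjusted p under 0.05, and DESeq2 called 0 to 2. The 8 were in PIO+GM against CTRL at 24 h (9.05% of all genes) and the 2 in PIO+GM against GM at 6 h (7.45% of all genes). Averaged over treatments, 3 of 16 rose from 6 to 24 h and 0 fell, with a list median of 0.07, where 62.6% of all genes were called. They were Ankrd24, a protein of the stereocilium rootlet (1.22, SE 0.14, adjusted p = 2.58e-07), the calmodulin-like gene Calml4 (0.60, SE 0.19, adjusted p = 0.00937) and the ion channel gene Piezo2 (0.63, SE 0.16, adjusted p = 0.0019). Piezo2 had 125 to 149 CPM in the 4 libraries numbered 2 at 24 h and 70.8 to 87.6 CPM in the other 8, and 3 genes of the list rose without those 4 (56.1% of all genes called). Ankrd24 also passed in each treatment, with log2 fold changes of 1.03 to 1.52, Calml4 in GM (1.27, adjusted p = 0.021) and Clrn2 in PIO+GM (1.74, adjusted p = 0.021). In PIO+GM against CTRL at 24 h, 13 of 16 were lower with a median of -0.77, and Strc, which encodes stereocilin of the horizontal top connectors, was nearest with 23.2, 11.7 and 21.9 CPM against 57.1, 36.6 and 65.1 CPM and a log2 difference of -1.48 (SE 0.38, adjusted p = 0.0949).

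Of 14 paralogs of the channel components, 13 were found under the symbols used and 11 passed the filter. Averaged over treatments, 5 rose with time, namely Tmc3 (1.77, SE 0.22, adjusted p = 1.19e-06), Tmc6 (0.76, SE 0.14), Tmc8 (0.70, SE 0.23), Tmc4 (0.50, SE 0.11) and Cib1 (0.40, SE 0.08), and 3 fell, namely Lhfpl3 (-2.25, SE 0.38), Lhfpl4 (-1.0, SE 0.19) and Lhfpl2 (-0.96, SE 0.17), in a comparison that called 31.9% of all genes higher and 30.7% lower. Tmc3 had 13.9 to 22.5 CPM in the libraries numbered 2 at 24 h and 4.87 to 14 CPM in the other 8, and without those 4 libraries 4 paralogs rose and 3 fell (56.1% of all genes called). In edgeR's fit of the 8 group means, the only calls of paralogs in drug comparisons were for Tmc6. It was lower in PIO+GM at 6 h than in GM (-1.26, SE 0.28, adjusted p = 0.0349, 1.32% of all genes called) and than in CTRL (-1.18, SE 0.28, adjusted p = 0.0333, 2.64% called).

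The levels of the 10 genes varied together over the libraries to different degrees. Over 24 libraries, which differ in depth and cell composition, factors that all genes of a library share, the correlation of each gene's log2 CPM with the mean of the other 9 was 0.77 for Ush1c, 0.77 for Pcdh15, 0.75 for Cdh23, 0.72 for Cib2, 0.70 for Tmc2, 0.68 for Lhfpl5, 0.65 for Myo7a and 0.52 for Tmie, and lowest for Tmc1 (0.32) and for Ush1g (0.28). With the group means removed, Lhfpl5 (0.82) and Pcdh15 (0.81) were highest and Tmie (0.33) and Ush1g (0.29) lowest. The genes outside the set whose log2 CPM was most like the mean of the 10 were Robo1 (r = 0.90), Wdsub1 (0.90), Msrb3 (0.89), Tmprss6 (0.89) and D7Ertd443e (0.88), over 24 libraries. With group means removed they were Dpf3 (0.95), Vwa2 (0.93), Otof (0.93), Tmprss6 (0.92) and Tox (0.91). Otof encodes otoferlin, the calcium sensor of hair cell synapses, and Msrb3 a methionine sulfoxide reductase known as a deafness gene.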

How the data were processed

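RNA sequencing libraries of 8 groups of 3 were compared. The authors mapped reads to the mouse genome (mm10 in the submitters' processing notes) with STAR, counted reads starting within RefSeq exons of each gene with qCount of QuasR, and deposited the raw counts with gene lengths. Of 24454 Entrez identifiers, 24374 matched a RefSeq symbol. Counts were analysed with edgeR 4.0.16 in R 4.3.3 (TMM factors 0.961 to 1.04, filterByExpr, 16317 genes, quasi-likelihood F-test, one mean per group over 24 libraries, Benjamini-Hochberg adjustment over all tested genes, threshold 0.05). SEs came from the F statistic, log2 CPM used a prior count of 2, and RPKM used the deposited length. The alternatives were DESeq2 1.42.0, no TMM, other filters, only the groups compared, removal of a GC trend, the replicate number as a block and leaving out each library. Calls given for edgeR are those of the fit with one mean per group, unless another setting is named. Calls of the marker and other gene lists with the block are not given. The fits without the libraries numbered 2 at 24 h and on summed counts were chosen after seeing the data. CPM and RPKM were scaled to the library total times its TMM factor. The fit was tested on simulated counts of 16317 genes, of which 200 were changed between GM and CTRL at 24 h. It called 60% of those changed by a log2 fold of 1 and 92.6% of those changed by 2. It also called 11 genes that were not changed. The genes and lists were chosen with earlier results of these data known, and all 10 genes are described. Other lists are given by counts, with called genes or up to 2 of lowest p named.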

Additional observations from a re-analysis of the deposited data

How the results depend on the processing

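No difference of the 10 genes with an unadjusted p under 0.05 changed direction under the alternatives, while the Tmc1 average over treatments moved from -0.30 to 0.02 without the libraries numbered 2 at 24 h. The labels number the replicates, but same-numbered libraries did not all deviate together (correlation of deviations from the group means -0.305 to 0.684 at 6 h and -0.025 to 0.723 at 24 h), and 8 of 12 libraries at 6 h and 11 of 12 at 24 h correlated best with their own number, a hint from the data only. The mean correlation of same-numbered libraries was 0.113 at 6 h and 0.38 at 24 h, against -0.055 and -0.182 for libraries with different numbers. The fit of the 8 group means treats all libraries as independent. With the replicate block, 1 of the 10 genes passed in PIO+GM against GM at 6 h (Myo7a, 12.2% of all genes called) and 1 in PIO+GM against CTRL at 24 h (Lhfpl5, adjusted p = 0.0194, 1.95% of all genes called), in place of 0, and with the block and the GC trend removed 2 passed in the latter (3.71% of all genes called; causes not tested). The 6 blocks are nested in time, so the block was not run for differences between times. DESeq2 called 1 gene in PIO+GM against CTRL and 1 in PIO+GM against PIO at 24 h, and 1, 2 and 2 between times in CTRL, PIO and PIO+GM (1.61%, 0.215%, 30.7%, 32.9% and 37.9% of all genes). Removal of the GC trend gave 1 gene in CTRL (35.2% of all genes called) and 0 in PIO+GM (34.8%) between times, and using only the groups compared gave 1 in PIO (10.2%) and 2 in PIO+GM (24.4%). Without the libraries numbered 2 at 24 h, 1 passed between times in CTRL (Ush1c, 21% of all genes called), and on summed counts 3 passed on average over treatments (41.4%). Leaving out a library gave 0 to 1 genes in PIO+GM against GM at 6 h (1 without PIO+GM 1, 25% of all genes called against 0.0245% to 0.257% without the others), in PIO+GM against CTRL at 6 h (1 without CTRL 2, 2.44%), and between times in PIO (1 without PIO 1 at 6 h, 22.9%) and in PIO+GM (0 without PIO+GM 1 or 2 at 6 h or 2 at 24 h, 37.7%, 21.2% and 26.6%), and 0 to 4 in CTRL (4 without CTRL 3 at 6 h, 26.2%, and 0 without each other library, 16.5% to 23.6%). The cause of these shifts was not tested. Tmc2's average rise lost its call without TMM (adjusted p = 0.0548), with at least 10 counts in every library (0.0503), and without 17 of 24 single libraries (up to 0.108). Myo7a and Ush1c lost theirs on summed counts (0.0718 and 0.0678), and Cdh23 without the libraries numbered 2 at 24 h. At 3 libraries a group, small differences of the 10 genes could not be resolved, those of Tmc1 and Lhfpl5 included, and an exact permutation test of 3 against 3 cannot give a p below 0.1.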
